A study of Mus musculus with 12 samples.

Results

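Lysosome genes were followed in LSKs (Lin- Sca1+ c-Kit+ cells), the bone marrow fraction that holds hematopoietic stem cells and multipotent progenitors. The list holds 33 genes for proteins of the lysosome and was read from the deposited table by gene name. It was drawn up with earlier results of these data known, although the rule itself uses no expression value. All 33 were found among the 53465 genes of the table, and all 33 passed the filter on low counts in every comparison. The study asked how loss of Tespa1, a protein first described in T cell development, alters the response of hematopoietic stem cells to stress. RNA-seq was available for 4 groups of 3 libraries, made from LSKs of untreated Tespa1+/+ mice, untreated Tespa1-/- mice, and mice of either genotype that had received 5-fluorouracil (5-FU), a drug that kills dividing cells, 9 days earlier. The labels call the Tespa1+/+ mice wild-type littermates. The Tespa1-/- mice carried the Tespa1tm1Smoc allele on a background backcrossed to C57BL/6, and the labels and methods name no promoter or Cre that would limit the loss to blood cells. Per the study's methods the mice were male and 8 to 10 weeks old, and the 5-FU dose was 150 mg/kg. The labels do not say whether the 3 libraries of a group came from different mice, so the p-values below measure the spread between these libraries, which may be technical.

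The lysosome is the acidic compartment in which cells break down proteins, glycans and lipids delivered by endocytosis and autophagy. Its hydrolases are made in the secretory pathway, tagged with mannose-6-phosphate and sorted by receptors, a proton pump called the V-ATPase keeps the lumen acidic, and heavily glycosylated membrane proteins such as LAMP1 and LAMP2 line the inner face. The transcription factors TFEB and TFE3 bind the CLEAR element, an E-box motif found near the start of many lysosome genes, when they are released from mTORC1 at the lysosomal surface. In hematopoietic stem cells, slow lysosomal degradation has been linked to quiescence.

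Promoter sequences are shown because some members carry the core of this motif near their start and others do not. RefSeq promoters (GRCm38.p6, 250 bases before to 50 bases after an annotated start) were matched for 30 of the 33 members, all but Ctsb, Npc1 and Asah1. A gene with more than 1 such window was counted when any of them held the motif. The E-box core CACGTG, which reads the same on both strands, was present in 10 of the 30 (33.3%) and in 8.09% of all 27025 genes with such windows. Its extension TCACGTGA, which contains the core and also reads the same on both strands, was present in 5 of the 30 (16.7%), against 1.12% of all genes. The following stretches end at or before the start, read 5′ to 3′ on the strand of the gene, and carry the core in capitals. Those of Mcoln1, Ctsd, Ctsa, Cln3 and Gla hold the longer motif, the stretch of Lamp1 holds the core 3 times, and Neu1 and Cd63, the members with the largest differences described below, are shown for contrast.
Mcoln1, chr8:3500428-3500518, plus strand: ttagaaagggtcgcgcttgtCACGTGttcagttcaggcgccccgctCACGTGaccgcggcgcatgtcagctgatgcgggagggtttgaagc
Ctsd, chr7:142387874-142387971, minus strand: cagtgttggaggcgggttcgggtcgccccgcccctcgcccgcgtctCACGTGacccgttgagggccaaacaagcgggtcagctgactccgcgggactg
Ctsa, chr2:164833715-164833772, plus strand: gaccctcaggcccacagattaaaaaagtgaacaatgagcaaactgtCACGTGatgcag
Cln3, chr7:126583305-126583404, minus strand: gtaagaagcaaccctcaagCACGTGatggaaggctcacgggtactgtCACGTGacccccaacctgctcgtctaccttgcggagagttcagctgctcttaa
Gla, chrX:134601181-134601255, minus strand: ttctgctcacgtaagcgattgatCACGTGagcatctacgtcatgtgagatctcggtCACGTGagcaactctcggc
Lamp1, chr8:13159055-13159150, plus strand: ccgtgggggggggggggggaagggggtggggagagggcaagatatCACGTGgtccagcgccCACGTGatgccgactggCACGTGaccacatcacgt
Neu1, chr17:34931103-34931252, plus strand: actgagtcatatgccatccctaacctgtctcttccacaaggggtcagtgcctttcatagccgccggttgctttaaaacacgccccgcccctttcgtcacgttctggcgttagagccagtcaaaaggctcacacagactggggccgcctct
Cd63, chr10:128909195-128909344, plus strand: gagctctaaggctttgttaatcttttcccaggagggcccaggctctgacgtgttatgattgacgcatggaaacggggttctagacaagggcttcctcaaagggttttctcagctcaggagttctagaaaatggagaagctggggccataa
The longer motif began at position -46 from an annotated start in Mcoln1, -99 in Ctsd, -13 in Ctsa, -123 in Cln3 and -228 in Gla. For Ctsa and Cln3 this start lies inside the gene. The window at the outer start of each (chr2:164832622-164832921 and chr7:126585768-126586067) held no copy of the core. Ctsl, Gaa, Glb1 and Naglu held the core without the longer motif, and no copy of the core was found in the windows of the other 20 matched members, Neu1 and Cd63 included. A match is a description of these letters and not evidence of binding.

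Library totals ranged from 22118154 to 28275079 counts. The 33 members together took 0.219% to 0.25% of the counts of a library, and single members had from 105 counts (Naglu, in 1 library) to 13026 (Laptm5). Per length, in FPKM (counts scaled by gene length and library total), Laptm5 was the most abundant member in untreated Tespa1+/+ LSKs at 82.8 ± 2.82 (SD, n = 3), followed by Psap at 67.5 ± 2.91 and Ctsz at 49.0 ± 4.76, 3 levels that lay apart by more than their spread. Lamp1 (38.6 ± 2.07), Ctss (37.2 ± 5.30) and Laptm4a (36.9 ± 3.07) came next and did not differ beyond their spread. The lowest members were Cln3 (1.01 ± 0.115), the transcription factors Tfeb (1.34 ± 0.282) and Tfe3 (1.58 ± 0.136), and the calcium channel gene Mcoln1 (1.801 ± 0.318).

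Tespa1 itself lay at 43.1 to 51.0 CPM (counts relative to the TMM-adjusted size of each library) in untreated Tespa1+/+ LSKs and at 34.5 to 34.9 CPM in untreated Tespa1-/- LSKs, and after 5-FU at 47.1 to 57.2 CPM and 17.2 to 20.7 CPM, so Tespa1 reads were fewer but not absent in the libraries labelled Tespa1-/-. These counts cover the whole gene and do not show the deleted part. Kit, which marks the sorted cells, was at 327 to 473 CPM in all 12 libraries, and Ly6a, the gene of Sca1, at 10.5 to 45.1 CPM. Genes of mature blood cells set the Tespa1-/- libraries after 5-FU apart from the other 9. The summed level of 12 neutrophil genes was 1043 to 1054 CPM there, against 9.12 to 13.3 CPM in Tespa1+/+ after 5-FU, 6.94 to 8.04 CPM in untreated Tespa1-/- and 2.53 to 2.67 CPM in untreated Tespa1+/+ LSKs. In the groups with the low sums, 2 to 4 of the 12 neutrophil genes had no count in any of the 3 libraries, Cd177 among them in each group. The sum of 10 erythroid genes was 476 to 484 CPM there, against 20.9 to 56.4 CPM elsewhere, and that of 5 basophil and mast cell genes 83.6 to 91.3 CPM against 10.2 to 26.5 CPM. Between genotypes after 5-FU, 10 of 12 neutrophil, 10 of 10 erythroid and 5 of 5 basophil and mast cell genes were called higher, and 7 of 8 LSK genes were called lower. The summed level of the 8 LSK genes was 849 to 931 CPM in Tespa1-/- LSKs after 5-FU and 1396 to 1760 CPM in the other 9 libraries. Other lists moved less between genotypes after 5-FU. Of T and NK cell genes 2 of 6 tested were called higher (57.0 to 65.1 CPM against 32.8 to 40.2 CPM), and of B cell genes 2 of 8 (325 to 343 CPM against 287 to 297 CPM). Of 6 megakaryocyte genes (185 to 190 CPM against 147 to 158 CPM) and of 5 dendritic cell genes tested (204 to 212 CPM against 350 to 362 CPM), 1 each was called higher and 1 lower. Neutrophil, erythroid, basophil and mast cell and LSK genes moved with every comparison that involves the Tespa1-/- libraries after 5-FU. The part of all these markers in the lysosome results was not tested.

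After 5-FU, 8 of the 33 lysosome genes were higher and 1 was lower in the Tespa1-/- libraries than in the Tespa1+/+ libraries. Neu1, the sialidase that trims sialic acid from glycoproteins, and Cd63, a tetraspanin of late endosomes and lysosomes, differed most, by 2.06-fold and 1.70-fold. The proteases Ctsz and Ctsb and the lipid cofactor gene Psap followed, while Laptm5 was lower. A gene was called when its p from the edgeR quasi-likelihood test, adjusted over the 17239 genes tested, was below 0.05. At this threshold 7.34% of all genes were called higher and 5.78% lower, and the share of members was above the first value and below the second. At an unadjusted edgeR p below 0.05, 9 members were higher and 3 lower, against 14.2% and 12.6% of all genes, and DESeq2 called 9 higher and 2 lower, against 9.44% and 7.88%. A log2 fold change above 0 was found for 22 members and for 49.1% of all genes. The median log2 fold change of the members was 0.13, against -0.0097 over all genes. With whole-population RNA, fewer cells of a type and less RNA per cell cannot be told apart in these values.

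**Figure D1:**
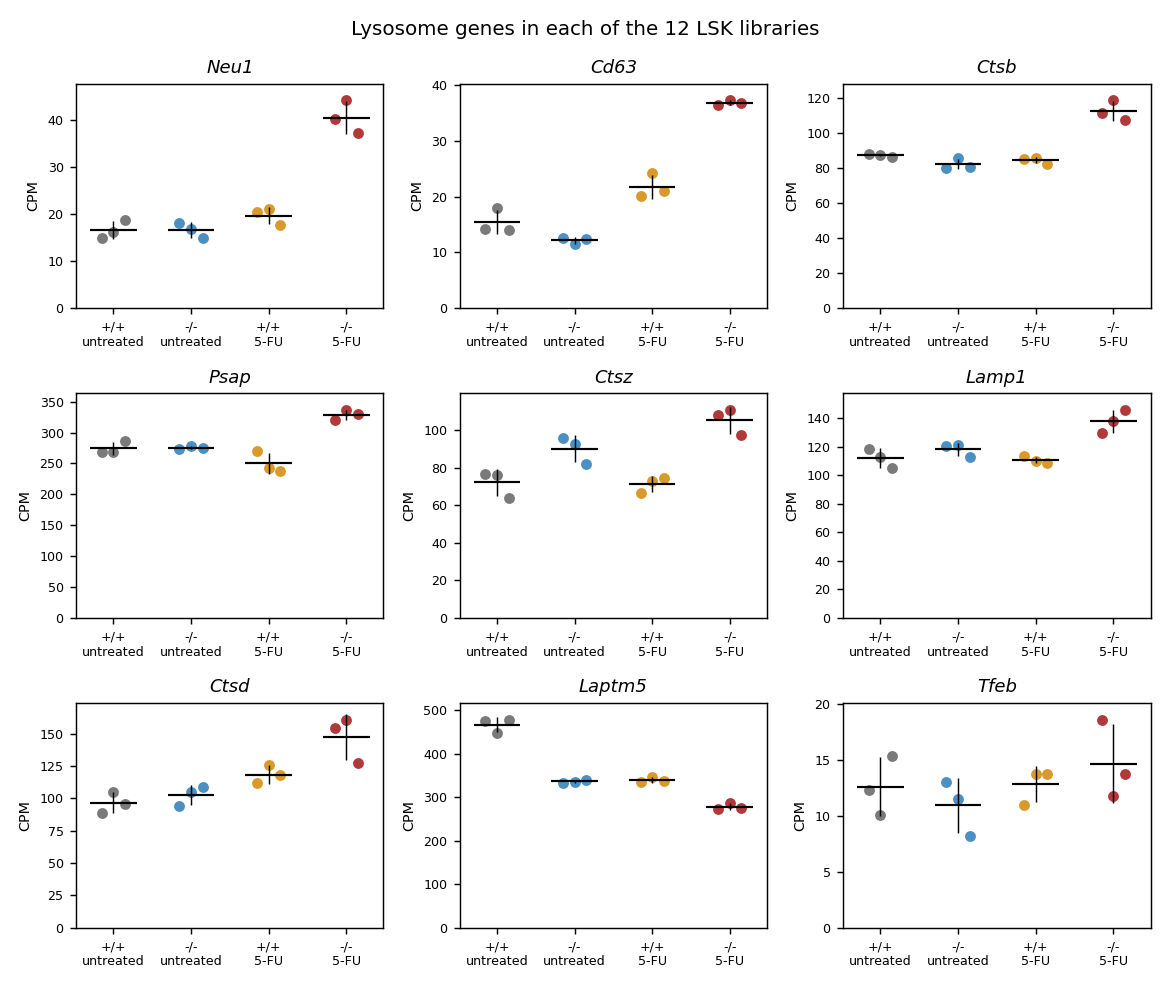
CPM (vertical axes, starting at 0) of 9 lysosome genes in the 12 LSK libraries. Points are libraries, horizontal lines group means and vertical lines ± 1 SD (n = 3). In the panels of Neu1, Cd63, Ctsb, Psap, Ctsz, Lamp1 and Ctsd, the 3 Tespa1-/- libraries after 5-FU lie above the other 9, in that of Laptm5 they lie below, and in that of Tfeb the groups overlap.

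Among the glycosidases, Neu1 (chr17:34931253-34935953, GRCm38) was at 20.4, 21.0 and 17.5 CPM in the Tespa1+/+ libraries after 5-FU and at 40.1, 44.1 and 37.1 CPM in the Tespa1-/- libraries. The lowest Tespa1-/- value was well above the highest Tespa1+/+ value, and the log2 fold change was 1.04 ± 0.13 (SE; edgeR adjusted p = 0.000725). Neu1 was the only glycosidase that also met the study's own thresholds, an unadjusted P below 0.05 with a fold change above 1.5. Man2b1, an alpha-mannosidase, was at 127, 106 and 104 CPM in Tespa1+/+ and at 134, 149 and 153 CPM in Tespa1-/- LSKs, with a log2 fold change of 0.37 ± 0.09 (edgeR adjusted p = 0.0253). Gusb, beta-glucuronidase, was at 60.1, 68.2 and 66.9 CPM against 74.5, 84.1 and 86.1 CPM, with a log2 fold change of 0.33 ± 0.09 (edgeR adjusted p = 0.0400). For both, the groups did not overlap but came close. The call of Man2b1 was lost without Tespa1+/+ replicate 2 or 3 or Tespa1-/- replicate 2 or 3 (edgeR adjusted p 0.0835 to 0.0905), and with a replicate block (0.0648). That of Gusb was lost without any single Tespa1+/+ replicate and without Tespa1-/- replicate 2 or 3 (0.0657 to 0.132), and also with library totals in place of TMM (0.0601) and without a filter on low counts (0.0501). The other 5 glycosidases, Hexa, Gaa, Gla, Glb1 and Naglu, were not called, with log2 fold changes from -0.20 (Glb1) to 0.35 (Gla, the alpha-galactosidase missing in Fabry disease).

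Of the proteases, 2 of 8 were called and both were higher, against 7.34% of all genes called higher and 5.78% lower. Ctsz, cathepsin Z, a carboxypeptidase, was at 66.5, 72.9 and 74.7 CPM in Tespa1+/+ and at 108, 111 and 97.1 CPM in Tespa1-/- LSKs after 5-FU. The groups were clearly separate, with a log2 fold change of 0.56 ± 0.08 (edgeR adjusted p = 0.00191). Ctsb, cathepsin B, a cysteine protease, was at 85.3, 85.7 and 82.5 CPM against 111, 119 and 108 CPM, a log2 fold change of 0.41 ± 0.07 (edgeR adjusted p = 0.00340). Ctsd, the aspartic protease cathepsin D, was separate by a small margin only, at 112, 126 and 118 CPM against 154, 161 and 127 CPM. With a log2 fold change of 0.32 ± 0.09 it was not called (edgeR adjusted p = 0.0535). It was called without Tespa1-/- replicate 3 (edgeR adjusted p = 0.0141), with at least 10 counts required in every library (0.0433), in 1 fit of all 12 libraries (0.0407) and by DESeq2 (0.011). Ctsa, Ctsc, Ctsl, Ctss and Tpp1 had log2 fold changes from -0.25 to 0.13, of which that of Ctss, the cathepsin of antigen-presenting cells, was the lowest.

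**Figure D2:**
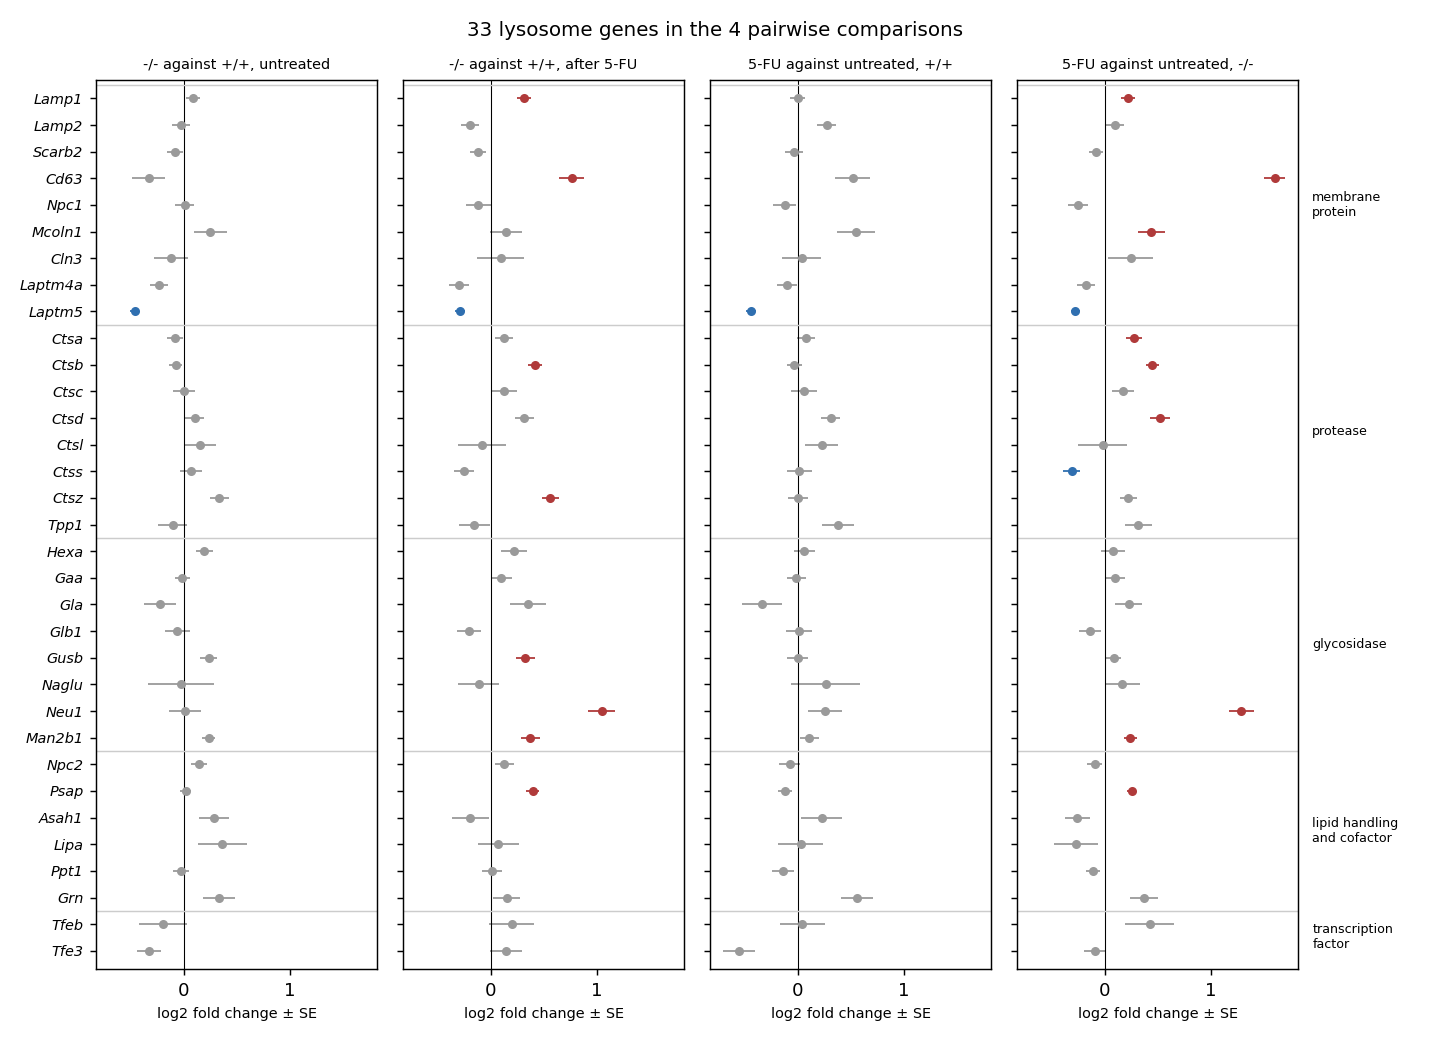
Fitted log2 fold change (horizontal axes) ± SE of each of the 33 lysosome genes, ordered by role, in the 4 pairwise comparisons. Red points were called higher and blue points lower at an edgeR adjusted p below 0.05, and grey points were not called. Red points number 8 between genotypes after 5-FU and 9 between treatments in Tespa1-/- LSKs, and 0 in the other comparisons.

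The membrane proteins moved in both directions. Cd63 (chr10:128900989-128912822) was at 20.1, 24.3 and 21.0 CPM in Tespa1+/+ and at 36.5, 37.3 and 36.8 CPM in Tespa1-/- LSKs after 5-FU, a log2 fold change of 0.76 ± 0.12 (edgeR adjusted p = 0.00284). It also met the study's thresholds, which made 2 of 33 members with Neu1, against 5.79% of all genes higher by that rule, and none lower against 5.94%. Lamp1 was at 113, 110 and 109 CPM against 130, 138 and 146 CPM, with a log2 fold change of 0.32 ± 0.07 (edgeR adjusted p = 0.0121), and its call was lost without Tespa1-/- replicate 3 (0.0516). Its paralog Lamp2, which is also needed for chaperone-mediated autophagy, went without a call, at 106, 110 and 106 CPM against 97.3, 81.7 and 102 CPM (log2 fold change -0.19 ± 0.09, edgeR adjusted p = 0.195). Laptm5, a lysosomal transmembrane protein of blood cells that promotes breakdown of antigen receptors, was the member called lower, at 334, 348 and 338 CPM against 274, 287 and 275 CPM. Its log2 fold change was -0.29 ± 0.05 (edgeR adjusted p = 0.00329), and the groups did not overlap. Scarb2, Npc1, Mcoln1, Cln3 and Laptm4a were not called, with log2 fold changes from -0.30 (Laptm4a) to 0.15 (Mcoln1).

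In the group for lipid handling and cofactors, Psap was the gene called. Psap encodes prosaposin, the precursor of 4 saposins that present sphingolipids to their hydrolases, and was at 270, 243 and 237 CPM in Tespa1+/+ and at 320, 336 and 330 CPM in Tespa1-/- LSKs after 5-FU. The groups lay far apart relative to their spread, with a log2 fold change of 0.39 ± 0.06 (edgeR adjusted p = 0.00234). The cholesterol carrier Npc2, the acid ceramidase gene Asah1, the acid lipase gene Lipa, the thioesterase gene Ppt1 and Grn, the gene of progranulin, had log2 fold changes from -0.19 (Asah1) to 0.15 (Grn). The lowest edgeR adjusted p among these 5 was 0.432.

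Read by the position of single libraries, the 3 Tespa1-/- libraries lay above the 3 Tespa1+/+ libraries after 5-FU for 11 members and below them for 5. All genes tested did so in 17.2% and 15.9%, respectively. The 3 Tespa1-/- libraries after 5-FU lay above all other 9 libraries for 9 members, namely Cd63, Ctsa, Ctsb, Ctsd, Ctsz, Lamp1, Man2b1, Neu1 and Psap, against 8.56% of all genes. They lay below the other 9 for Laptm5, against 6.18% of all genes. Summed by role, the 8 proteases reached 536 to 589 CPM in these libraries and 430 to 489 CPM in the other 9. The 8 glycosidases reached 451 to 502 CPM against 365 to 413 CPM, and the 6 genes for lipid handling and cofactors 567 to 606 CPM against 481 to 553 CPM. Psap alone made up most of the last sum in these libraries, at 320 to 336 CPM against 237 to 287 CPM in the other 9. The sum of the 9 membrane proteins, of which Laptm5 contributed more than any other, was not higher, with 736 to 777 CPM in Tespa1-/- LSKs after 5-FU, 772 to 784 CPM in untreated Tespa1-/- LSKs, 806 to 822 CPM in Tespa1+/+ LSKs after 5-FU and 904 to 928 CPM in untreated Tespa1+/+ LSKs. The Tespa1-/- groups with and without 5-FU overlapped in this sum.

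**Figure D3:**
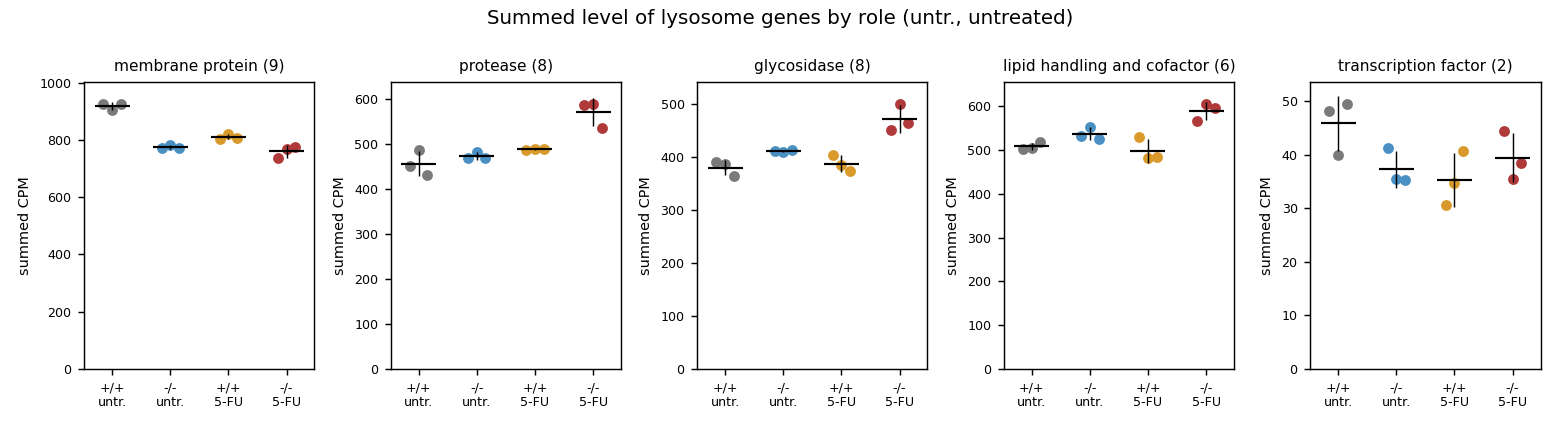
Summed CPM (vertical axes, starting at 0) of the lysosome genes of each role in the 12 libraries, with the number of genes in brackets. Points are libraries, horizontal lines group means and vertical lines ± 1 SD (n = 3). The Tespa1-/- libraries after 5-FU (red) are the highest for proteases, glycosidases and genes of lipid handling and cofactors, and not for membrane proteins or transcription factors.

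Without treatment, 1 of the 33 lysosome genes differed between the genotypes by the test. No member was called higher, against 1.64% of all 17055 genes tested, and Laptm5 alone was called lower, against 3.59%. Laptm5 was at 475, 447 and 478 CPM in Tespa1+/+ and at 334, 336 and 340 CPM in Tespa1-/- LSKs. The groups were wide apart, with a log2 fold change of -0.46 ± 0.04 (edgeR adjusted p = 0.000632). Marker genes moved in this comparison too, with 3 of 8 LSK genes called lower (summed level 1698 to 1760 CPM in Tespa1+/+ and 1396 to 1444 CPM in Tespa1-/- LSKs), 3 of 7 B cell genes tested called lower (65.5 to 77.0 CPM and 42.2 to 48.2 CPM), and 3 of 11 monocyte and macrophage genes tested called higher (444 to 504 CPM and 604 to 625 CPM). Of 8 erythroid genes tested 1 was called higher (20.9 to 26.3 CPM and 42.2 to 52.3 CPM), as was 1 of 5 megakaryocyte genes tested (68.9 to 73.7 CPM and 80.8 to 91.1 CPM). The neutrophil sums given above and those of basophil and mast cell genes (10.2 to 13.5 CPM and 15.6 to 17.2 CPM) did not overlap either, with 0 genes called. Their part in the result was not tested. By the study's thresholds 0 members were higher and 0 lower, against 3.54% and 3.2% of all genes. The libraries of the genotypes did not overlap for 3 members that were higher in Tespa1-/- LSKs, against 11.4% of all genes, and for 6 that were lower, against 14.1%. The members not called had log2 fold changes from -0.33 (Cd63) to 0.36 (Lipa), and the lowest edgeR adjusted p among them was 0.0709, for Man2b1. Neu1 stood at 14.9, 16.2 and 18.6 CPM in Tespa1+/+ and at 18.1, 16.8 and 14.8 CPM in Tespa1-/- LSKs, fully overlapping values. Ctsz was at 76.4, 76.2 and 63.7 CPM against 95.9, 92.6 and 82.0 CPM, separate groups whose log2 fold change of 0.34 was not called (edgeR adjusted p = 0.0872). The log2 fold changes of Lamp1 and Lamp2 were 0.09 ± 0.06 and -0.02 ± 0.09 (edgeR adjusted p = 0.525 and 0.919). At an unadjusted edgeR p below 0.05, 4 members were higher and 3 lower, against 7.97% and 10.5% of all genes. DESeq2 called 2 members higher (Ctsz and Man2b1) and 1 lower, against 3.1% and 5.27%.

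The response to 5-FU itself was read within each genotype. These comparisons share libraries with those between genotypes, so their values are given side by side and not as further evidence. In Tespa1+/+ LSKs, 0 members were called higher and 1 lower 9 days after 5-FU, against 3.77% and 4.18% of all 17002 genes tested. The 1 was Laptm5, which went from 475, 447 and 478 CPM to 334, 348 and 338 CPM, a log2 fold change of -0.44 ± 0.05 (edgeR adjusted p = 0.000629). In the same comparison 7 of 7 B cell genes tested were called higher, with summed levels of 65.5 to 77.0 CPM without and 287 to 297 CPM after 5-FU, as were 3 of 5 megakaryocyte genes tested, with 68.9 to 73.7 CPM and 147 to 158 CPM. Of the other lists, 3 of 7 erythroid genes tested were called higher (20.9 to 26.3 CPM and 43.0 to 56.4 CPM), 2 of 4 basophil and mast cell genes tested (10.2 to 13.5 CPM and 22.9 to 26.5 CPM) and 2 of 6 neutrophil genes tested (2.53 to 2.67 CPM and 9.12 to 13.3 CPM). Of 8 LSK genes 2 were called higher and 2 lower, with sums of 1698 to 1760 CPM and 1407 to 1468 CPM. Flt3, a progenitor gene held by both the LSK and the dendritic cell list, was one of those called lower, at 613, 620 and 611 CPM without and 313, 323 and 305 CPM after 5-FU, and it was the 1 dendritic cell gene called of 4 tested. The part of these markers in the result was not tested. No member met the study's thresholds in this comparison, against 6.33% of all genes higher and 3.54% lower, and the libraries did not overlap for 5 members higher and 3 lower, against 13.2% and 15.5%. Among members not called, Grn had the largest log2 fold change at 0.55 (edgeR adjusted p = 0.0566) and Tfe3 the smallest at -0.55 ± 0.15 (0.0610). At an unadjusted edgeR p below 0.05, 6 members were higher and 2 lower, against 10.6% and 10.8% of all genes. DESeq2 called 4 higher (Lamp2, Mcoln1, Ctsd and Grn) and 2 lower (Tfe3 and Laptm5), against 5.9% and 6.23%. Grn was at 56.4, 40.1 and 47.2 CPM without and at 72.2, 57.3 and 79.0 CPM after 5-FU, groups that were separate by a small margin. It was called in the same fit without untreated replicate 1 or without 5-FU replicate 2 (edgeR adjusted p = 0.0446 and 0.0411), Tfe3 without 5-FU replicate 3 (0.0393) and Lamp2 without untreated replicate 3 (0.0480). Cd63 was at 14.2, 17.9 and 14.1 CPM without and at 20.1, 24.3 and 21.0 CPM after 5-FU, without overlap. Its log2 fold change of 0.51 was not called (edgeR adjusted p = 0.0978). Cd63, Mcoln1 and Grn were called higher in 1 fit of all 12 libraries (edgeR adjusted p = 0.0197, 0.0395 and 0.0349).

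In Tespa1-/- LSKs, 9 members were called higher and 2 lower after 5-FU, against 10.7% and 8.64% of all 17228 genes tested. At an unadjusted edgeR p below 0.05 the counts were 12 and 3, against 17.0% and 15.4% of all genes, and by DESeq2 10 and 2, against 12.2% and 10.3%. Besides the neutrophil, erythroid, basophil and mast cell genes, 7 of 8 B cell genes were called higher in this comparison (summed level 42.2 to 48.2 CPM without and 325 to 343 CPM after 5-FU), as were 4 of 5 megakaryocyte genes tested (80.8 to 91.1 CPM and 185 to 190 CPM), and 5 of 12 monocyte and macrophage genes tested were called higher and 3 lower. Their part in the results was not tested. Cd63 rose from 12.5, 11.5 and 12.5 CPM to 36.5, 37.3 and 36.8 CPM, a log2 fold change of 1.60 ± 0.10 (edgeR adjusted p = 1.5e-05). Neu1 rose from 18.1, 16.8 and 14.8 CPM to 40.1, 44.1 and 37.1 CPM, a log2 fold change of 1.28 ± 0.12 (edgeR adjusted p = 0.000123). These members, the tetraspanin and the sialidase, were the 2 that met the study's thresholds, against 7.78% of all genes higher and 6.58% lower. Ctsd rose from 94.3, 105 and 109 CPM to 154, 161 and 127 CPM, with a log2 fold change of 0.52 ± 0.09 (edgeR adjusted p = 0.00523). Ctsb rose from 80.3, 85.6 and 80.8 CPM to 111, 119 and 108 CPM, with a log2 fold change of 0.45 ± 0.06 (edgeR adjusted p = 0.00130). Psap followed with a log2 fold change of 0.25 ± 0.04 (edgeR adjusted p = 0.00289). Laptm5 fell by 0.28 on the log2 scale, from 334, 336 and 340 CPM to 274, 287 and 275 CPM (edgeR adjusted p = 0.00174). None of these 6 calls was lost when a single library was left out.

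The other 5 calls in Tespa1-/- LSKs were less firm. Mcoln1, the gene of the lysosomal calcium channel TRPML1, had a log2 fold change of 0.44 (edgeR adjusted p = 0.0425), Ctsa, the protective protein that stabilises NEU1, 0.27 (0.0261), Man2b1 0.24 (0.0234) and Lamp1 0.22 ± 0.06 (0.0381), while Ctss had -0.31 (0.0258). Mcoln1 went from 24.5, 21.6 and 21.0 CPM to 25.9, 33.5 and 31.7 CPM and Ctss from 73.3, 71.0 and 68.4 CPM to 60.7, 59.4 and 51.9 CPM, both without overlap. Each of the 5 calls was lost without any single untreated Tespa1-/- replicate, which left 5 members higher and 1 lower. Without 5-FU replicate 2, Mcoln1, Ctsa, Man2b1 and Lamp1 were lost, without replicate 3 Mcoln1, Ctss, Man2b1 and Lamp1, and without replicate 1 Ctsa. The edgeR adjusted p in these fits ran from 0.0511 (Ctsa) to 0.137 (Mcoln1). Without a filter on low counts Lamp1 and Mcoln1 were lost as well (0.0626 and 0.0599). With a replicate block Lamp1 (0.0795), Mcoln1 (0.0923) and Ctsa (0.0571) were lost, and Ctsz was called higher (0.0479). The libraries did not overlap for 11 members higher and 3 lower, against 19.8% and 18.8% of all genes. Of the 9 members called higher, 8 had a promoter entry and 4 of those held the core CACGTG (Lamp1, Mcoln1, Ctsa and Ctsd), as did 6 of the 20 matched members not called. Between genotypes after 5-FU, 1 of the 7 matched members called higher held it (Lamp1), as did 9 of the 22 not called.

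The interaction term between genotype and treatment, fitted over the 12 libraries, asked which members had a different genotype effect after 5-FU than without it. It called 4 members higher and 0 lower, against 3.02% and 1.99% of all 18696 genes tested. Cd63 had the largest interaction, 1.09 ± 0.18 on the log2 scale (edgeR adjusted p = 0.00345), with 12.5, 11.5 and 12.5 CPM in Tespa1-/- against 14.2, 17.9 and 14.1 CPM in Tespa1+/+ LSKs without treatment, a difference that was not called (log2 fold change -0.33, edgeR adjusted p = 0.304), and higher values in Tespa1-/- LSKs after 5-FU. The interaction was 1.04 ± 0.19 for Neu1 (edgeR adjusted p = 0.00637), 0.49 ± 0.08 for Ctsb (0.00430) and 0.38 ± 0.08 for Psap (0.0107). Cd63 and Neu1 also met the study's thresholds, against 4.16% of all genes higher, and 0 members did so in the lower direction, against 6.22%. At an unadjusted edgeR p below 0.05, 8 members were higher and 1 lower, against 9.79% and 8.9% of all genes, and DESeq2 called 4 higher and 0 lower, against 4.65% and 3.56%. All 4 calls held when any 1 of the 12 libraries was left out. Laptm5 was lower in Tespa1-/- LSKs both without treatment and after 5-FU, and its interaction of 0.17 was not called (edgeR adjusted p = 0.108). The interaction was 0.23 ± 0.09 for Lamp1 and -0.16 ± 0.13 for Lamp2, neither of them called (edgeR adjusted p = 0.169 and 0.557). Of 3 interaction genes with a promoter entry (Cd63, Neu1 and Psap), 0 held the core CACGTG.

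**Figure D4:**
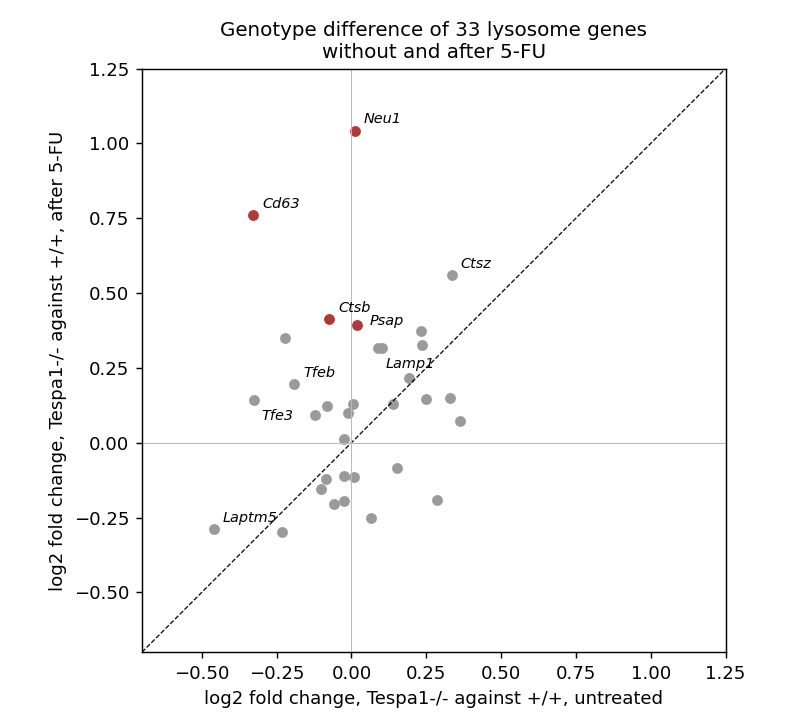
Log2 fold change between genotypes without treatment (horizontal axis) and after 5-FU (vertical axis) for the 33 lysosome genes. The dashed line marks equal differences, and red points had an edgeR adjusted p below 0.05 for the interaction. Cd63, Neu1, Ctsb and Psap lie above the line, and Laptm5 lies below 0 on both axes.

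The transcription factors were not called by the edgeR test in any of the 5 comparisons. Tfeb was at 12.3, 10.1 and 15.3 CPM in untreated Tespa1+/+, 13.04, 11.5 and 8.22 CPM in untreated Tespa1-/-, 10.9, 13.7 and 13.7 CPM in Tespa1+/+ after 5-FU and 18.5, 11.7 and 13.7 CPM in Tespa1-/- LSKs after 5-FU. These values overlapped in every pair of groups. The log2 fold change of Tfeb between genotypes was -0.19 ± 0.23 without treatment and 0.20 ± 0.21 after 5-FU (edgeR adjusted p = 0.723 and 0.616), and between treatments 0.04 ± 0.21 in Tespa1+/+ and 0.42 ± 0.23 in Tespa1-/- LSKs (0.934 and 0.246). Tfe3 was at 35.8, 29.9 and 34.2 CPM in untreated Tespa1+/+, 28.2, 23.9 and 27.0 CPM in untreated Tespa1-/-, 19.6, 20.9 and 26.9 CPM in Tespa1+/+ after 5-FU and 25.9, 23.8 and 24.7 CPM in Tespa1-/- LSKs after 5-FU. It was highest in the untreated Tespa1+/+ group, which overlapped no other group. The log2 fold change of Tfe3 between genotypes was -0.32 ± 0.11 without treatment and 0.14 ± 0.15 after 5-FU (edgeR adjusted p = 0.165 and 0.605), and between treatments in Tespa1-/- LSKs -0.09 ± 0.11 (0.607). Between treatments in Tespa1+/+ LSKs it was -0.55 ± 0.15 (edgeR adjusted p = 0.0610), and there Tfe3 was called lower by DESeq2 (0.0142), in 1 fit of all 12 libraries (edgeR adjusted p = 0.0149) and without 5-FU replicate 3 (0.0393). The interaction was 0.39 ± 0.32 for Tfeb and 0.47 ± 0.19 for Tfe3 (edgeR adjusted p = 0.587 and 0.182). RNA levels do not show where these proteins lie in the cell, which is how mTORC1 controls them.

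Over the 5 comparisons, 13 members were called at least once and 20 never. The share of all genes called at least once was not computed, so these 2 counts have no background. The 20 were Lamp2, Scarb2, Npc1, Cln3, Laptm4a, Ctsc, Ctsl, Tpp1, Hexa, Gaa, Gla, Glb1, Naglu, Npc2, Asah1, Lipa, Ppt1, Grn, Tfeb and Tfe3. Reads of some members may be shared with a gene whose exons overlap, since the use of strand in counting is not given in the sources used here. Of the members called, this touches Ctsb (with Fdft1, opposite strand), Ctsa (with Neurl2 and Pltp, opposite strand), Ctsd (with Gm49369, same strand), Ctsz (with Nelfcd, opposite strand, 10 bases) and Lamp1 (with Grtp1, opposite strand), whose values are uncertain to that extent. No annotated exon overlap was found for Neu1, Cd63, Psap, Laptm5, Man2b1 or Gusb.

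Beyond the 33 members, 114 further genes of the pathway were examined in 6 lists. After 5-FU, 15 of the 114 were called higher and 6 lower in Tespa1-/- LSKs, against the 7.34% and 5.78% of all genes given above, and without treatment 1 of 113 tested was called higher and 7 lower, against 1.64% and 3.59%. Of 17 V-ATPase subunits, which pump protons into the lysosome, 4 were called higher after 5-FU and 0 lower, against 7.34% and 5.78% of all genes (8 and 0 at an unadjusted edgeR p below 0.05, against 14.2% and 12.6% of all genes), and 16 had a positive log2 fold change, against 49.1% of all genes. The summed level of the 17 was 784 to 808 CPM in Tespa1-/- LSKs after 5-FU and 643 to 670 CPM in the other 9 libraries. Atp6v0a1, of the membrane sector of the pump, was at 18.8, 21.1 and 19.7 CPM in Tespa1+/+ and at 35.7, 37.9 and 35.5 CPM in Tespa1-/- LSKs after 5-FU (log2 fold change 0.87 ± 0.11, edgeR adjusted p = 0.00107). Atp6v0c, of the proton-carrying ring, was the subunit called lower without treatment, at 47.2, 47.8 and 52.4 CPM against 33.9, 31.6 and 31.4 CPM (log2 fold change -0.59 ± 0.09, edgeR adjusted p = 0.00762), a call that was lost without Tespa1-/- replicate 2 (0.0559).

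Among 29 other lysosomal enzymes, 4 were called higher and 2 lower after 5-FU, against 7.34% and 5.78% of all genes (7 and 4 at an unadjusted edgeR p below 0.05, against 14.2% and 12.6%). Ctsk, the cathepsin of bone-resorbing osteoclasts, was at 5.66, 5.32 and 7.65 CPM in Tespa1-/- LSKs and at 0.856, 0.0385 and 0 CPM in Tespa1+/+ LSKs after 5-FU, and its log2 fold change of 4.35 ± 0.92 rests on few counts in the latter (edgeR adjusted p = 0.0139, and 0.0524 without Tespa1-/- replicate 3). Over the alternative fits this log2 fold change ran from 3.78 to 7.97, the highest without Tespa1+/+ replicate 1. Acp5, the tartrate-resistant acid phosphatase of osteoclasts and macrophages, was at 8.82, 13.3 and 12.7 CPM against 0.817, 2.50 and 1.56 CPM (log2 fold change 2.83 ± 0.38, edgeR adjusted p = 0.00141). For both, the Tespa1-/- libraries after 5-FU were the highest of the 12. The summed level of 13 monocyte and macrophage genes was 573 to 602 CPM in Tespa1-/- and 452 to 498 CPM in Tespa1+/+ LSKs after 5-FU. Of the 12 tested, Vcam1 and F13a1 were called higher (log2 fold changes 2.46 and 1.17) and Ccr2 and Ms4a6c lower (-0.26 and -0.71). C1qa and Adgre1 had log2 fold changes of 2.65 and 1.73 at low levels and were not called (edgeR adjusted p = 0.0906 and 0.105). These genes were named after their values were seen, and their part in the values of Ctsk and Acp5 was not tested.

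Of 16 genes for delivery of enzymes to lysosomes, 3 were called higher after 5-FU and 0 lower, against 7.34% and 5.78% of all genes (5 and 0 at an unadjusted edgeR p below 0.05, against the same 14.2% and 12.6%). Igf2r, the large mannose-6-phosphate receptor, was at 25.4, 24.8 and 26.8 CPM in Tespa1+/+ and at 37.3, 37.5 and 34.7 CPM in Tespa1-/- LSKs after 5-FU (log2 fold change 0.51 ± 0.11, edgeR adjusted p = 0.0129). Without treatment its order was the opposite, 39.1, 38.3 and 42.9 CPM in Tespa1+/+ against 29.4, 27.8 and 30.1 CPM in Tespa1-/- LSKs (log2 fold change -0.45 ± 0.09, edgeR adjusted p = 0.0309). The first call was lost without Tespa1-/- replicate 1 or 2 (0.0508 and 0.0537) and the second without any single replicate (0.0515 to 0.152), whereas the interaction of 0.96 was called in every such fit. Gga1, an adaptor that sorts these receptors at the Golgi, was at 43.6, 38.7 and 45.2 CPM against 58.3, 56.0 and 51.1 CPM after 5-FU (log2 fold change 0.38 ± 0.10, edgeR adjusted p = 0.0385), a call lost without any single replicate.

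Of 17 other lysosomal membrane proteins, 2 were called higher and 2 lower after 5-FU, against 7.34% and 5.78% of all genes (3 and 3 at an unadjusted edgeR p below 0.05, against 14.2% and 12.6%). Clcn7, the chloride and proton exchanger, was at 23.1, 20.6 and 19.7 CPM in Tespa1+/+ and at 31.9, 29.2 and 29.9 CPM in Tespa1-/- LSKs (log2 fold change 0.52 ± 0.12, edgeR adjusted p = 0.0218). The lysosomal ion channel gene Tmem175 was at 15.1, 18.5 and 14.2 CPM against 6.31, 10.6 and 10.3 CPM (log2 fold change -0.81 ± 0.23, edgeR adjusted p = 0.0482). Neither gene overlapped between genotypes. Tmem175 lost its call without any single replicate, and Clcn7 without any but Tespa1+/+ replicate 1. Of 17 genes for mTORC1 and the control of the TFEB family, 0 were called between genotypes after 5-FU, against 7.34% of all genes higher and 5.78% lower (2 higher and 0 lower at an unadjusted edgeR p below 0.05, against 14.2% and 12.6% of all genes), where 13 of the 17 had a positive log2 fold change, against 49.1% of all genes. Without treatment, Tfec, a relative of TFEB, was higher in Tespa1-/- LSKs, at 11.5, 13.8 and 11.3 CPM against 4.52, 5.83 and 6.29 CPM (log2 fold change 1.15 ± 0.20, edgeR adjusted p = 0.0136), and lost its call without any single Tespa1-/- replicate.

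Of 18 autophagy genes, 2 were called higher and 2 lower after 5-FU, against 7.34% and 5.78% of all genes (6 and 6 at an unadjusted edgeR p below 0.05, against 14.2% and 12.6%). Without treatment 0 were called higher and 4 lower, against 1.64% and 3.59% (1 and 5 at an unadjusted edgeR p below 0.05, against 7.97% and 10.5%). The 4, named after their values were seen, were Sqstm1, Map1lc3b, Ulk1 and Atg16l1, with log2 fold changes of -0.55, -0.54, -0.50 and -0.39. Leaving out 1 library lost the call of Ulk1 in 1 of 6 fits (without Tespa1-/- replicate 3), of Sqstm1 in 2 (without Tespa1-/- replicate 1 or 2), of Map1lc3b in 4 (all but those without Tespa1+/+ replicate 2 or 3) and of Atg16l1 in 5 (all but that without Tespa1+/+ replicate 3), with edgeR adjusted p of at most 0.0526, 0.0597, 0.12 and 0.0901. Gabarapl1, of the family that coats the autophagosome membrane, was at 64.8, 57.9 and 72.2 CPM in Tespa1+/+ and at 39.0, 36.7 and 40.6 CPM in Tespa1-/- LSKs after 5-FU (log2 fold change -0.75 ± 0.11, edgeR adjusted p = 0.00175). Wipi1, which binds the forming autophagosome, was at 9.84, 9.70 and 10.0 CPM against 18.0, 14.1 and 16.9 CPM (log2 fold change 0.73 ± 0.17, edgeR adjusted p = 0.0194), a call lost without any single replicate but Tespa1-/- replicate 2. The groups did not overlap for either gene, and their directions were opposite.

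**Figure D5:**
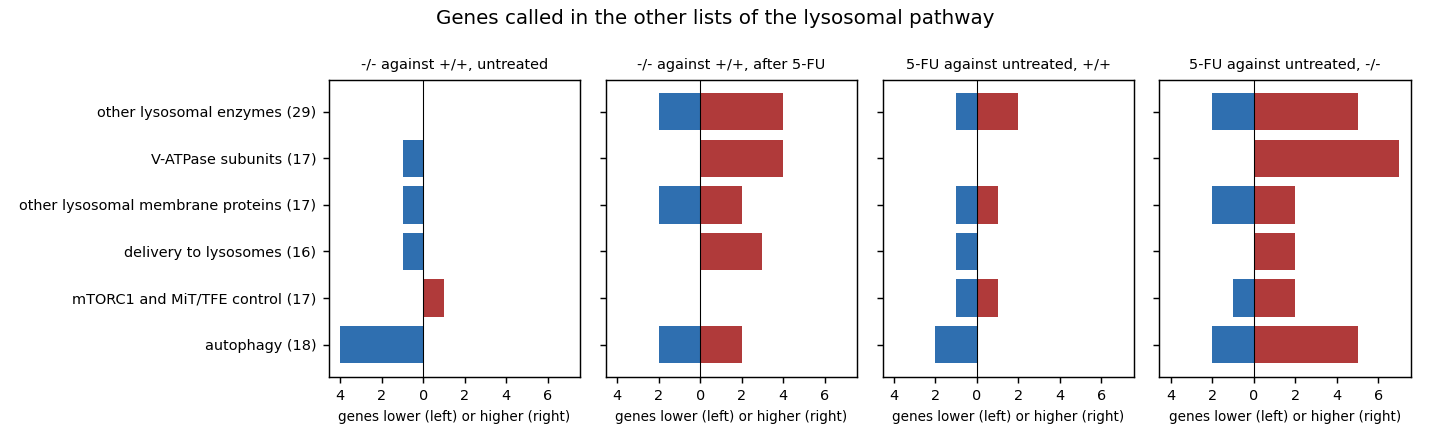
Number of genes called higher (red, to the right of 0) and lower (blue, to the left of 0) in each of the 6 further lists of the lysosomal pathway, with list sizes in brackets, for the 4 pairwise comparisons. V-ATPase subunits have 4 genes higher and 0 lower between genotypes after 5-FU and 7 higher and 0 lower between treatments in Tespa1-/- LSKs.

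In the response to 5-FU, 4 of 113 of these genes were called higher and 6 lower in Tespa1+/+ LSKs, and 23 of 114 were called higher and 7 lower in Tespa1-/- LSKs, against 3.77% and 4.18%, and 10.7% and 8.64%, of all genes. The V-ATPase list held 7 of the 23 and none of the 7. Its called genes were Atp6v0a1, Atp6v0b, Atp6v0d1, Atp6v1d, Atp6v1e1, Atp6ap2 and Tcirg1, with log2 fold changes from 0.35 (Atp6v1e1) to 0.87 (Atp6v0a1), named after their values were seen. As for the members, the marker genes of other blood cells given above, B cells and megakaryocytes included, moved in the same comparisons, and their part was not tested.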

How the data were processed

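RNA-seq of sorted LSKs was available as 1 table of gene counts and FPKM for 12 libraries. Per the labels, the libraries were paired-end and made with a stranded poly-A kit. The submitters' processing notes name CASAVA 1.8, HISAT2, StringTie, edgeR and the build GRCm38 without roles, and the use of strand in counting is not given in the sources used here. The count columns were deposited by the authors as raw read counts per gene, and the deposited FPKM columns were used for levels per length only.

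Genes were filtered with filterByExpr (minimum count 10) and scaled by TMM, and each comparison was fitted to its own 6 libraries with the edgeR 4.0.16 quasi-likelihood test in R 4.3.3, the interaction to all 12. P-values were adjusted by Benjamini-Hochberg over all genes tested, and a call was an adjusted p below 0.05. Each SE of a log2 fold change was computed back from the test, as its absolute value divided by the square root of the quasi-likelihood F. The study's thresholds (P below 0.05, fold change above 1.5) were applied to the same fits. Scripts were tested on simulated data. Tables and figures used Python 3.11.15, pandas 2.3.3, NumPy 2.4.6 and matplotlib 3.10.9. Promoters came from RefSeq (GRCm38.p6).

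The members and all lists were chosen with earlier results of these data known. Members called in a comparison were named in full, or the 4 largest rises and falls where more than 8 were called. Tfeb, Tfe3, Lamp1 and Lamp2 were always named, as were up to 2 called genes of each further list. Alternatives were DESeq2 1.42.0, scaling by RLE or by library totals alone, testing unfiltered genes or those with at least 10 counts in every library, 1 fit of 12 libraries, a replicate block, and leaving out each library. Same-numbered libraries did not deviate together (correlations -0.032 to 0.017), so numbers were not taken as pairs. Totals were 22118154 to 28275079 counts, at which the set floor of 3 counts is 0.106 to 0.136 CPM and covers counting error only. A planned comparison of protein sequences was not run.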

Additional observations from a re-analysis of the deposited data

Results flagged for a closer look

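For 9 genes the difference between genotypes was not the same without treatment and after 5-FU, by the edgeR test of the interaction over 12 libraries. Of the 33 members, these were Cd63 (1.09 on the log2 scale), Neu1 (1.04), Ctsb (0.49) and Psap (0.38). Of the 114 further genes, 5 were called higher and 0 lower, against 3.02% and 1.99% of all genes, a share of 4.39%, and these were the sulfatase gene Arsb (1.27), the receptor genes Igf2r (0.96) and M6pr (0.47), the autophagy receptor gene Sqstm1 (0.76) and the endolysosomal channel gene Tpcn1 (0.59). The call of M6pr was lost in 9 of 12 fits that left out a library and that of Tpcn1 in 2 of 12. An interaction above 0 was not always a rise in Tespa1-/- LSKs after 5-FU. Sqstm1 was called lower in Tespa1-/- LSKs without treatment (-0.55), and its difference after 5-FU was not called (0.21, edgeR adjusted p = 0.12). Arsb was called higher in Tespa1-/- LSKs after 5-FU (1.06) and also called lower with 5-FU in Tespa1+/+ LSKs (-0.57, edgeR adjusted p = 0.0159).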

How the results depend on the processing

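Calls of Neu1, Cd63, Ctsz, Ctsb, Psap and Laptm5 between genotypes after 5-FU, of Laptm5 in the other pairwise comparisons, of Cd63, Neu1, Ctsb, Ctsd and Psap between treatments in Tespa1-/- LSKs, and of the 4 interaction genes held under every alternative run at an adjusted p below 0.05. Elsewhere counts moved, and the cause was not tested. Between genotypes without treatment, DESeq2 called 2 members higher and the fit of 12 libraries 1. Between genotypes after 5-FU, DESeq2 and the fit of 12 libraries each called 9 higher and 2 lower, with Ctsd and Laptm4a added, and library totals and no filter each called 7 higher, without Gusb. Between treatments in Tespa1+/+ LSKs, members called higher numbered 4 by DESeq2, 3 in the fit of 12 libraries, 2 with library totals, and 1 without a filter or with at least 10 counts in every library, and DESeq2 and the fit of 12 libraries called 2 lower, with Tfe3 added. In Tespa1-/- LSKs the fit of 12 libraries called 8 higher and 1 lower, with Mcoln1 and Ctss lost, no filter gave 7 higher and DESeq2 10. The study's thresholds left 2 members higher between genotypes after 5-FU, 2 between treatments in Tespa1-/- LSKs and 2 for the interaction, and 0 lower in each pairwise comparison. Leaving out 1 library gave 6 to 8 higher and 1 lower between genotypes after 5-FU, 0 and 1 without treatment, 0 to 1 and 1 to 2 between treatments in Tespa1+/+, 5 to 8 and 1 to 2 in Tespa1-/- LSKs, and 4 and 0 for the interaction. Values near 0 that were not called changed sign. Lamp1 between treatments in Tespa1+/+ LSKs was 0.0450 with library totals, 0.0047 with at least 10 counts in every library, and -0.0418 to 0.0296 without single libraries. Without single libraries, Tfeb ran from -0.0890 to 0.2172 there and from -0.0100 to 0.3345 between genotypes after 5-FU, and Lamp2 from -0.0919 to 0.0569 between genotypes without treatment. With the replicate block, which pairs libraries by number only, 1 member was called higher between treatments in Tespa1+/+ LSKs (Grn). It gave 7 higher between genotypes after 5-FU, with Man2b1 lost. Between treatments in Tespa1-/- LSKs it also gave 7 higher, with Lamp1, Mcoln1 and Ctsa lost and Ctsz added. Naglu, with as few as 105 counts, had the lowest depth of the members.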
